A study of Homo sapiens with 9 samples.

Results

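The guide RNAs described here target 23 genes of iron uptake, iron storage and iron-sulfur cluster assembly, taken from a genome-wide CRISPR-Cas9 knockout screen in HEL cells. A gene belongs to the set by its known role, and all of its guides were taken whatever their values. The set was chosen with earlier results of these data known, so that its shares below are not from a blind choice. They number 92 guides, with 4 for each gene, among 77441 guides in all, of which 76441 target 19114 genes and 1000 are non-targeting controls. Cells take up iron by binding transferrin to its receptor, and they keep what they do not use in ferritin. In mitochondria, iron and sulfur are joined into iron-sulfur clusters on a scaffold protein, and a second machinery hands clusters to proteins of the cytosol and nucleus. Erythroid cells are known for their high demand for iron, most of which goes into heme.

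HEL cells are a human line of erythroleukemia in which JAK2 is mutated. Ruxolitinib (RUX) blocks the JAK kinases. HEL cells that carried Cas9 were infected with the Brunello lentiviral library, whose guides each direct Cas9 to cut 1 gene. The guides were then sequenced in 1 library at day 0, in 4 libraries after 12 days with DMSO and in 4 libraries after 12 days with 200 nM RUX. All 9 libraries came from the same Cas9 line under puromycin and blasticidin, and the labels name no separate infections, so that p-values measure the spread between these libraries, which may be technical. When loss of a gene slows or kills cells, the guides against it take a smaller share of the reads at day 12 than at day 0. The table names guides by number, and guide sequences were not used here.

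Each library held between 19631338 and 26611323 reads on guides, and the guides against the iron genes had between 18 and 800 reads at day 0, with a median of 236.5. A gene was scored in each library by averaging ln((value + 5)/(day 0 value + 5)) across its guides, after each later library was divided by a factor of 1.05 to 1.10 that sets its control guides level with day 0. The guide values printed below are the deposited ones, before that division, while scores and percentages kept are after it. A score of 0 is no change from day 0. Every score shares the 1 day 0 library, so that libraries on the same side of 0 are not independent results. A score below −0.5 is counted below. The study applied this limit to dependency scores of another kind, a model's estimates with copy-number normalization, so that the counts are not of the same quantity. Guides with a day 0 value under 30 were left out, which kept 91 of the 92, and all 23 genes were scored. Control guides combined by 4 into 247 pseudo-genes scored between −0.35 and 0.27 with RUX and between −0.51 and 0.28 with DMSO. DMSO replicate 3 stood apart, with an SD of 0.46 among its control guides against 0.26 to 0.30 in the other libraries of day 12.

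Against day 0, the genes that lay below −0.5 all belonged to the mitochondrial machinery that builds iron-sulfur clusters. NFS1, the cysteine desulfurase that supplies the sulfur, had the lowest score in both conditions, with −0.99 ± 0.08 under RUX and −1.09 ± 0.17 under DMSO (SD, n = 4 libraries). HSCB, a co-chaperone that helps clusters leave the scaffold, had −0.63 ± 0.16 under RUX and −0.46 ± 0.08 under DMSO (SD, n = 4). ISCA2, which acts late, in the assembly of the larger clusters, had −0.58 ± 0.14 under RUX and −0.28 ± 0.14 under DMSO (SD, n = 4). Genes of iron uptake, storage and regulation lay above −0.5 in both conditions, except that IREB2 had −0.55 under RUX with guides of at least 100 at day 0. The mitochondrial iron importer SLC25A28 had −0.53 under RUX without its farthest guide.

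Under RUX, 3 of the 23 genes (13.0%) lay below −0.5, where 4.66% of all 19112 scored genes did, and under DMSO the count was 1 of 23 against 4.47% of all genes. Limma called 2 of the 23 lower than day 0 under RUX, NFS1 and HSCB, beside 1.61% of all genes, and 1 under DMSO, NFS1, beside 1.18%. No iron gene was called higher than day 0. The median score of the 23 genes was −0.22 under RUX and −0.13 under DMSO, and that of all genes was −0.097 and −0.092. Nearest to the threshold under RUX were ISCA2 inside it and IREB2 outside it at −0.37. Under DMSO they were NFS1 inside and HSCB outside.

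NFS1 lies on chromosome 20 of GRCh38, from 35668052 to 35699355. Its scores were −1.08, −0.96, −1.005 and −0.90 in RUX replicates 1 to 4 and −1.05, −1.23, −1.22 and −0.87 in DMSO replicates 1 to 4. All 8 libraries lay below −0.5, and the ranges of the conditions overlapped. The mean scores left 37.3% of the guide level at day 0 under RUX and 33.6% under DMSO. Both passed limma's test over all genes, with an adjusted p of 0.016 under RUX and 0.0068 under DMSO (standard error 0.24 each). NFS1 ranked 135 from the lowest of 19112 genes under RUX and 81 under DMSO.

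The guides of NFS1 were uneven. Guide sg_23715 had a value of 141 at day 0, values of 12.1, 50.9, 18.3 and 11.3 in RUX replicates 1 to 4 and of 5.26, 17.3, 7.5 and 14.6 in DMSO replicates 1 to 4. It kept 15.8% of its level under RUX and 10.0% under DMSO, the strongest loss among the 91 scored guides in both conditions. Guide sg_23713 started from 338 and stood at 56.6, 79.6, 67.9 and 121 under RUX and at 51.6, 26.0, 52.5 and 131 under DMSO, which left 22.5% and 16.6%. Guide sg_23714 kept 60.1% under RUX and 64.6% under DMSO, and sg_23716 kept 90.5% and 118%, so that 1 guide stayed near its day 0 level in the same libraries. The score of the gene therefore rests on the first 3 guides, and mainly on the first 2.

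The call for NFS1 depended on how guides and libraries were weighted. With reads summed over its guides, the score under RUX was −0.59 by edgeR and −0.60 by DESeq2 (adjusted p = 0.25 and 0.16). The score under DMSO was −0.47 by both (adjusted p = 0.51 by edgeR and 0.39 by DESeq2). Both tools also scale the libraries in their own way, and which step changed the score was not tested. The call was also lost with the median over guides, where the scores were close to the mean, −0.97 for RUX and −1.05 for DMSO (adjusted p = 0.16 and 0.12 from limma), and after the median of 20 neighbouring genes, −0.24 in both conditions, was subtracted (score −0.75 under RUX and −0.85 under DMSO, adjusted p = 0.17 and 0.088 from limma). Under RUX alone it was lost with libraries scaled by their totals, scaled over all guides or with a day 0 value of at least 100 (limma's adjusted p of 0.056, 0.0503 and 0.056), with scores of −0.92, −0.91 and −0.99.

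HSCB lies on chromosome 22, from 28742039 to 28757515. Its scores were −0.46, −0.59, −0.65 and −0.84 in RUX replicates 1 to 4 and −0.37, −0.56, −0.49 and −0.42 in DMSO replicates 1 to 4. Every library lay below 0, and the RUX libraries reached lower but overlapped those of DMSO. The guide level that was left came to 53.0% under RUX and 63.2% under DMSO. Limma called HSCB under RUX (adjusted p = 0.028, standard error 0.16) and did not under DMSO (adjusted p = 0.23). Without RUX replicate 4, the lowest library, the score under RUX was −0.57 and the adjusted p from limma was 0.078.

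Of the 4 guides of HSCB, 3 lay below −0.5 in both conditions. Guide sg_62291 had 371 at day 0, then 183, 164, 139 and 63.5 in the RUX libraries and 161, 149, 179 and 299 in the DMSO libraries, and kept 32.7% and 48.1%. Guides sg_62292 and sg_62289 kept 46.9% and 54.2% under RUX and 49.6% and 58.5% under DMSO. The fourth, sg_62290, kept 94.95% and 114%. HSCB was not called under RUX with any of the other library scalings, with a day 0 value of at least 100, with the median over guides, without its farthest guide, after subtraction of neighbouring genes (score −0.495), with limma's trend taken over scores, or by edgeR or DESeq2, where the adjusted p ran from 0.056 to 0.27. The score itself was −0.63 with the day 0 minimum of 100, −0.67 with the median and −0.83 without the farthest guide, and between −0.57 and −0.55 with the other scalings. By edgeR and DESeq2 it was −0.46 and −0.47.

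ISCA2 lies on chromosome 14, from 74493756 to 74497106. Its scores were −0.79, −0.50, −0.48 and −0.54 in RUX replicates 1 to 4 and −0.40, −0.39, −0.22 and −0.11 in DMSO replicates 1 to 4. All RUX libraries lay below all DMSO libraries. Against day 0 limma called it in neither condition (adjusted p = 0.21 under RUX and 0.72 under DMSO). It moved further without guide sg_58562, the one guide of ISCA2 that gained, which went from a value of 79.6 at day 0 to between 118 and 214 in the 8 later libraries. With guides of at least 100 at day 0, which leaves that guide out, ISCA2 had −0.97 with RUX and −0.58 with DMSO, and limma's adjusted p under RUX was 0.032.

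The other genes of mitochondrial assembly had smaller scores, and none passed limma against day 0. GLRX5, a glutaredoxin that carries clusters from the scaffold, had −0.36 ± 0.12 under RUX and −0.22 ± 0.12 under DMSO, with sg_38161 as its only guide below −0.5. ISCA1, the partner of ISCA2, had −0.35 ± 0.12 and −0.31 ± 0.16, and it is the gene that lost a guide to the day 0 minimum, with 18 reads. That guide, sg_51864, kept 253% under RUX and 202% under DMSO. With it put back, the ISCA1 score under RUX was −0.03. Under DMSO the highest ISCA1 score over the alternatives was −0.05. FDXR, the reductase that feeds electrons to the mitochondrial ferredoxins, had −0.24 ± 0.16 and −0.07 ± 0.11. ISCU, the scaffold on which NFS1 acts, had 0.01 ± 0.07 under RUX and −0.06 ± 0.24 under DMSO (SD, n = 4 libraries for each value). Its 4 guides kept between 89.4% and 127% under RUX and between 68.8% and 110% under DMSO. The 95% confidence interval of the ISCU score was −0.40 to 0.42 with RUX and −0.47 to 0.35 with DMSO, and that of NFS1 was −1.57 to −0.40 with RUX and −1.68 to −0.51 with DMSO.

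In the cytosol, CIAO1 and MMS19 belong to the complex that delivers clusters to target proteins such as DNA polymerases and helicases. CIAO1 had −0.32 ± 0.09 under RUX and −0.11 ± 0.19 under DMSO, and MMS19 had −0.13 ± 0.07 and −0.11 ± 0.23 (SD, n = 4). None of their 8 guides lay below −0.5 in either condition. Neither gene was called against day 0.

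Among the genes of iron uptake, TFRC, the transferrin receptor, had −0.30 ± 0.25 under RUX and −0.33 ± 0.09 under DMSO, which left 74.4% and 71.8% of its guide level (SD, n = 4; limma's adjusted p = 0.65 and 0.59). Its scores ran from −0.59 to −0.06 in the RUX libraries and from −0.44 to −0.23 in the DMSO libraries. Guide sg_19067 was its lowest, with 263 at day 0 and 130, 179, 88.2 and 307 under RUX and 103, 120, 93.8 and 152 under DMSO. The 95% confidence interval of the TFRC score under DMSO ran from −0.79 to 0.13, which holds both 0 and scores below −0.5. TFR2, the second receptor, which senses iron, had −0.07 ± 0.26 and 0.03 ± 0.09. Transferrin itself (TF), a protein of the blood plasma, had −0.11 ± 0.15 and −0.20 ± 0.13. STEAP3, the reductase that turns ferric into ferrous iron in endosomes, had −0.27 ± 0.06 and −0.21 ± 0.32.

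Guides against SLC11A2, the transporter (DMT1) that moves ferrous iron out of endosomes, had the highest score of the 23 genes in both conditions. The score was 0.31 ± 0.20 under RUX and 0.34 ± 0.18 under DMSO, and all 8 libraries lay above 0, from 0.06 to 0.55. It ranked 18925 and 18947 of 19112 genes from the lowest, but limma did not call it higher than day 0 (adjusted p = 0.58 and 0.52). The mean gain lay in sg_12829, which kept 194% under RUX and 173% under DMSO, and in sg_12832, which kept 157% and 214%. Guide sg_12832 had only 39 reads at day 0. Guides sg_12830 and sg_12831 kept between 101% and 110% on average in both conditions. From 159 at day 0, sg_12831 ran from 47.5 in DMSO replicate 4 to 464 in DMSO replicate 3. SLC40A1 (ferroportin), the exporter of iron, had −0.16 ± 0.16 and −0.05 ± 0.26. The mitochondrial iron importer SLC25A28 (mitoferrin-2) had −0.28 ± 0.21 and −0.13 ± 0.20. Its paralog SLC25A37 is described below with the comparison of conditions.

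For iron storage, the ferritin heavy chain FTH1 had 0.03 ± 0.28 under RUX and 0.05 ± 0.19 under DMSO, and the light chain FTL had −0.22 ± 0.29 and −0.07 ± 0.18. NCOA4, the receptor that brings ferritin to lysosomes for release of its iron, had −0.12 ± 0.11 and −0.20 ± 0.14. Ferritin genes have processed pseudogenes elsewhere in the genome, and whether a guide also cuts those was not tested.

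Of the regulators, the iron regulatory proteins bind messenger RNAs of the receptor and of ferritin when iron is scarce. ACO1 (IRP1) had −0.19 ± 0.17 and −0.31 ± 0.19, and IREB2 (IRP2) had −0.37 ± 0.09 and −0.35 ± 0.33 under RUX and DMSO. The IREB2 score rests on sg_9693, which went from 103 at day 0 to between 17.2 and 45.3 in the RUX libraries and between 5.63 and 68.4 in the DMSO libraries, while its other 3 guides kept between 71.2% and 120%. DMSO replicate 3 gave the lowest IREB2 score, −0.84, against −0.28 to −0.10 in the other DMSO libraries. FBXL5, which marks IREB2 for degradation when iron is plentiful, had 0.26 ± 0.18 and 0.03 ± 0.15. Its guide sg_34808 went from 212 at day 0 to 504, 467, 509 and 483 under RUX and to 446, 272, 589 and 478 under DMSO, and the conditions overlapped. The other FBXL5 guides kept between 85.1% and 168% under RUX and between 52.1% and 116% under DMSO.

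Between RUX and DMSO, no iron gene differed by limma's test over all genes, and neither edgeR nor DESeq2 called one. Over all genes the tests called 0.0419% (limma), 0.0314% (edgeR) and 0.162% (DESeq2). An unadjusted p under 0.05 from limma was reached by 2 of the 23 genes, ISCA2 and SLC25A37, and by 9.09% of all genes. The 2 shares are close, so that this count sets the iron genes apart in no way. The differences of the 23 genes ran from −0.29 for ISCA2 to 0.25 for SLC25A37, with a median of −0.031 against −0.0056 over all genes. The RUX libraries lay entirely below the DMSO libraries in 1 of the 23 genes, beside 2.55% of all genes, and entirely above in 1, beside 2.10%.

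ISCA2 lay lower under RUX, with a difference of −0.29 on the natural log scale and a 95% confidence interval of −0.62 to 0.03 (standard error 0.13). Limma's unadjusted p for ISCA2 was 0.029, and the interval holds 0 because it uses fewer degrees of freedom than that p. The adjusted p of ISCA2 from limma was 0.49, and the exact permutation test of the 8 libraries (two-sided) gave p = 0.029. That permutation p is the smallest this design can give, and every gene whose conditions do not overlap gets it. The difference lay in 2 guides. Guide sg_58564 had 198 at day 0, then 26.3, 36.1, 91.3 and 45.3 under RUX and 83.2, 103, 103 and 131 under DMSO, so that 22.9% and 49.98% were left. Guide sg_58563 had 228 at day 0, then 51.5, 89.8, 83.2 and 99.7 under RUX and 113, 142, 133 and 156 under DMSO, so that 33.3% and 55.9% were left. In sg_58563 the conditions did not overlap, and in sg_58564 RUX replicate 3 overlapped the DMSO libraries. The remaining guides, sg_58561 and sg_58562, kept 71.7% and 182% under RUX and 62.6% and 185% under DMSO. By edgeR and DESeq2, on summed reads, the difference was −0.11.

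SLC25A37 (mitoferrin-1), the mitochondrial iron importer that erythroid cells use, had a difference in the other direction, which limma did not call over all genes. Its scores were 0.22, 0.20, 0.30 and 0.22 in RUX replicates 1 to 4 and −0.09, 0.16, −0.15 and 0.00 in DMSO replicates 1 to 4. The RUX libraries lay close together above day 0, and the DMSO libraries lay around it. RUX exceeded DMSO by 0.25, with a standard error of 0.089 and a 95% confidence interval of 0.04 to 0.47. Limma's adjusted p was 0.37, and the exact permutation p was again 0.029, which follows from the lack of overlap. The interval belongs to this gene alone and takes no account of the number of genes tested. All 4 guides had higher means under RUX than under DMSO. Guide sg_38464 had 286 at day 0, then 401, 380, 429 and 420 under RUX and 238, 400, 304 and 239 under DMSO. The gap was widest in sg_38466, with 159, 156, 197 and 182 under RUX and 68.4, 182, 79.7 and 145 under DMSO from 167 at day 0. Without DMSO replicate 3, the difference of SLC25A37 was 0.21 and that of ISCA2 was −0.28.

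For NFS1 and HSCB no difference between conditions beyond the spread of the libraries was detected. The difference was 0.10 for NFS1 (95% confidence interval −0.27 to 0.48, adjusted p = 0.88 from limma, exact permutation p = 0.29) and −0.18 for HSCB (interval −0.43 to 0.08, adjusted p = 0.62 from limma, exact permutation p = 0.086). By edgeR and DESeq2 the sign for NFS1 turned, to −0.12.

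Guide by guide, 20 of the 91 guides (22.0%) lay below −0.5 under RUX and 15 (16.5%) under DMSO, where 11.9% and 12.2% of all targeting guides did. Of these, 12 guides of 8 genes lay below −0.5 in both conditions, for which the share of all guides was not computed. Of 988 control guides, 8 lay below −0.5 under RUX and 30 under DMSO. No single guide against an iron gene passed limma's test over all guides against day 0, where 0.0981% of guides passed under RUX and 0.00795% under DMSO. None passed between RUX and DMSO either, where 0.00928% of guides did, and 7 of the 91 had an unadjusted p under 0.05 beside 8.73% of all guides.

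Other genes of the same pathways were taken from lists of known function, which were also chosen with earlier results of these data known. The counts below stand beside 4.66% of all genes below −0.5 under RUX and 4.47% under DMSO. Limma called 1.61% and 1.18% of all genes lower than day 0. Of 13 further genes of mitochondrial cluster assembly, 3 (23.1%) lay below −0.5 under RUX and 5 (38.5%) under DMSO, with medians of −0.39 and −0.22. Limma called 2 of these 13 genes lower under RUX and none under DMSO. GFER, a sulfhydryl oxidase of the intermembrane space, had −1.08 ± 0.08 under RUX (SD, n = 4; adjusted p = 0.0028 from limma) and −0.67 ± 0.36 under DMSO. FDX1L, the ferredoxin now named FDX2 that gives electrons for cluster assembly, had −0.78 ± 0.20 under RUX (SD, n = 4; adjusted p = 0.022 from limma) and −0.69 ± 0.03 under DMSO. LYRM4, the small partner that stabilises NFS1, had −0.46 ± 0.08 and −0.58 ± 0.28 under RUX and DMSO, without passing.

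Of 9 further genes of cytosolic assembly, 2 (22.2%) lay below −0.5 under RUX and 1 (11.1%) under DMSO, and limma called none. FAM96B (CIAO2B), the partner of CIAO1 and MMS19, had −0.61 ± 0.15 under RUX and −0.55 ± 0.27 under DMSO, and CIAPIN1, an early electron carrier of this machinery, had −0.52 ± 0.20 and −0.45 ± 0.07. Of 22 further iron handling genes, 2 (9.09%) lay below −0.5 in each condition. PCBP1, an iron chaperone that also binds RNA, had −1.05 ± 0.12 and −1.04 ± 0.27 (SD, n = 4) and passed limma in both conditions (adjusted p = 0.012 and 0.013). FLVCR1, a transporter linked to heme export, had −0.63 ± 0.13 and −0.98 ± 0.15 and passed under DMSO (adjusted p = 0.029 from limma).

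Of 34 genes for proteins that carry iron-sulfur clusters, 4 (11.8%) lay below −0.5 under RUX and 2 (5.9%) under DMSO. The shares of all genes were 4.66% and 4.47%. In each condition 1 of the 34 passed limma. Their median score was −0.15 under RUX and −0.11 under DMSO, against −0.097 and −0.092 for all genes. UQCRFS1, the Rieske protein of respiratory complex III, had −0.81 ± 0.11 under RUX (adjusted p = 0.021 from limma) and −0.64 ± 0.10 under DMSO. DNA2, a nuclease and helicase of replication, had −0.64 ± 0.05 under RUX and −0.77 ± 0.06 under DMSO (adjusted p = 0.040 from limma). POLE, the catalytic subunit of a replicative polymerase, had −0.67 ± 0.24 and −0.27 ± 0.26, and DPYD, which breaks down pyrimidines, had −0.55 ± 0.19 and −0.38 ± 0.19, without passing. None of the 9 heme synthesis enzymes lay below −0.5, and their lowest was FECH, which inserts iron into heme, at −0.39 ± 0.16 and −0.44 ± 0.05 (SD, n = 4). No gene of these lists was called between RUX and DMSO by limma.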

How the data were processed

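Guide DNA was amplified from HEL-Cas9 cells and sequenced in 9 libraries. Per the methods and the processing notes, MAGeCK was used by the authors to count guide reads, and the deposited values are a signal, not counts: the reads of each library times 1 factor. Division by that factor gave whole reads for 100% of values (within 0.001), used for the count tools, so that depth is known. No further columns of samples were in the table. The authors' beta scores, normalized for copy number, were not used here.

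Values were rescaled by the median ratio over control guides, guides under a day 0 value of 30 and genes under 2 guides were left out, and ln(value + 5) was averaged over guides. The natural log was taken here, after this rescaling of the deposited values. Limma 3.58.1 in R 4.3.3 fitted 1 mean per condition over all 9 libraries, with a mean-variance trend and Benjamini-Hochberg adjustment over 19112 genes (threshold 0.05). The single day 0 library was taken to vary like the others. Confidence intervals took limma's standard error with 6 residual degrees of freedom. Limma's p-values use more degrees of freedom, so these intervals are wider than the p-values imply. Single guides were fitted in the same way. EdgeR 4.0.16 and DESeq2 1.42.0 were run on recovered reads summed per gene, and the fits were tested on simulated data. Genes were placed on GRCh38 with GENCODE.

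Members and lists were chosen with earlier results of these data known. All 23 genes are named. Values per library are given for those below −0.5, called, or without overlap between conditions, and list genes are named up to 4 per list from those below −0.5, except that some list genes are counted but not reported here by name. IREB2, TFRC, SLC11A2, FBXL5 and FECH are described further, chosen after their values were seen. Alternatives were other scalings, pseudocounts, day 0 minimums and guide summaries, a left-out guide or library, no trend, subtraction of 20 neighbouring genes, a replicate block and, chosen after seeing the data, limma's trend over scores.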

Additional observations from a re-analysis of the deposited data

How the results depend on the processing

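The 3 genes below −0.5 under RUX became 1, NFS1, after subtraction of neighbouring genes, by edgeR and by DESeq2. They became 2, without ISCA2, with values as deposited or when all guides set the scaling, and 4 with a day 0 value of at least 100 (IREB2 added) or without the farthest guide (SLC25A28 added). Under DMSO the 1 gene became 2 with a day 0 value of at least 100, 3 with the median over guides or without the farthest guide, and 0 by edgeR and DESeq2. The 2 genes lower than day 0 under RUX became 0 with libraries scaled by total or over all guides, with the median over guides, after subtraction of neighbouring genes, by edgeR and by DESeq2. They became 1 with values as deposited, with a day 0 value of at least 100 (ISCA2) and with limma's trend over scores, and 1 to 2 when a library was left out. The 1 gene lower under DMSO became 0 with the median over guides, after subtraction of neighbouring genes, by edgeR and by DESeq2, and stayed at 1 when any library was left out. The cause of these changes was not tested. The difference of NFS1 between RUX and DMSO turned to −0.123 by edgeR and −0.124 by DESeq2. No gene and no guide was called between conditions under any alternative that was run for it.

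Replicate numbers did not pair the libraries: the correlation of same-numbered DMSO and RUX libraries ran from −0.13 to 0.033. With the replicate block, 0 iron genes and 0 of their guides were called, as without it. Over all genes, limma's count lower than day 0 was 307 under RUX and 226 under DMSO, and ran from 78 to 394 and from 53 to 284 under the alternatives. The genes below −0.5, 891 and 855, ran from 352 to 1065 and from 349 to 984. Between conditions, 8 genes were lower and 0 higher, with 0 to 28 lower and 0 to 6 higher under the alternatives. The median of 236.5 reads per guide and the 1 library of day 0 limit the scores: that of HSCB under RUX has a 95% confidence interval of −1.04 to −0.23.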

Other observations

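In the mitochondrial machinery, partners in the same step stood apart from each other. NFS1 lay below −0.5 in all 8 libraries of day 12, while the scaffold ISCU, on which it works, ranked 14038 of 19112 genes from the lowest under RUX and 10891 under DMSO. LYRM4, which holds NFS1 stable, lay between them at −0.46 under RUX and −0.58 under DMSO. Whether the guides against ISCU cut their gene was not tested.

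ABCE1, a cluster protein that recycles ribosomes, had a score of 0.05 ± 0.13 under RUX and −0.02 ± 0.28 under DMSO (SD, n = 4 libraries), and POLD1, a replicative polymerase with a cluster, had 0.03 ± 0.32 and −0.09 ± 0.15. Both genes are commonly needed by dividing cells, and they were singled out after their values were seen.

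Each of the 46 groups of 4 scores (23 genes in 2 conditions) was also examined for a single library far from the rest. By Dixon's criterion none stood out, where chance gives 2.3 groups.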
